A study of Mus musculus with 6 samples.

Results

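Reelin, the secreted glycoprotein encoded by *Reln*, its receptors and the proteins that carry its signal inside the cell were followed as 7 genes (*Reln*, *Dab1*, *Vldlr*, *Lrp8*, *Fyn*, *Crk* and *Crkl*) in dorsal spinal cord cells of the mouse embryo. Every one of the 7 was found among 14860 genes named alone by a transcript cluster, the set of probes of one locus, of which the arrays hold 23332. Where several clusters name a gene alone, the one used was chosen by its highest mean signal over the 6 arrays, which concerned *Dab1* only. The pathway was proposed after the difference of *Reln* between stages had been seen, so the values below are a description, and they support no claim of their own. The cells carried *Wnt1-cre* and the *Rosa26mTmG* reporter, and all groups shared both alleles. Cre made under *Wnt1* control turns the reporter from tdTomato to GFP in the dorsal neural tube and neural crest, and their descendants keep GFP. GFP+ cells were collected by FACS from untreated dorsal spinal cords of 3 ages (E10.5, E11.5, E12.5), and their RNA was measured on GeneChip Mouse Exon 1.0 ST arrays, 2 for each stage. Whether both arrays of a stage hold different embryos is not said in the sources used here, so their spread may be technical, and p-values measure only that spread.

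Reelin is released by some neurons into the tissue around them and is bound by the lipoprotein receptors Vldlr and Lrp8 (also called ApoER2) on other cells. The receptors gather the adaptor Dab1, which Src family kinases, Fyn first among them, phosphorylate on tyrosines. Phosphorylated Dab1 then recruits Crk, Crkl and PI3 kinase and is afterwards degraded. The pathway is known for placing migrating neurons in layered brain regions. In the spinal cord of *reeler* mice, which lack Reelin, sympathetic preganglionic neurons and some dorsal horn neurons are found out of place.

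The values are log2 signals as the authors deposited them, so a difference of 1 is a doubling of signal. A detection limit was set from 810 clusters of genes for odorant, vomeronasal and trace amine receptors, at their 95th percentile. It was 5.84 for the mean of all arrays, 6.19 to 6.54 on the replicate 1 arrays and 5.36 to 5.39 on the replicate 2 arrays. Array medians ranged from 5.33 to 5.73. Replicate 1 of E10.5 was unlike the other arrays: its correlation with them averaged 0.890 across clusters, against 0.948 to 0.955 for each of the rest, and its values spread less (SD over clusters 1.66, against 1.78 to 1.96). Differences of the 7 genes and of the wider pathway between E12.5 and E10.5 are therefore also given without it. In these bulk samples, more cells of a type and more RNA per cell cannot be told apart.

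The 2 genes with the largest differences, *Reln* and *Dab1*, have CpG-rich promoters in the RefSeq annotation of GRCm38.p6, and these are shown as the sequence next to which annotated transcripts of these genes begin. RefSeq promoter windows matched all 7 genes. Each line holds the 250 bases before an annotated start, on the strand of the gene, and capitals mark the E-box letters CANNTG, which read the same on both strands and which factors of the bHLH class can bind. The arrays do not tell from which start a transcript came.

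*Reln*, chr5:22344706-22344955, minus strand: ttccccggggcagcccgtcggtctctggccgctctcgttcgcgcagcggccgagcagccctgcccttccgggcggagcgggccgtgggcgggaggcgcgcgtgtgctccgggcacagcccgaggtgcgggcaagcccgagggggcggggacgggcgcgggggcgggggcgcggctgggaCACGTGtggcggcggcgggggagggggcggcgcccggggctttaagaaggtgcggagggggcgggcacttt

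*Dab1*, CpG-rich start, chr4:104367288-104367537, plus strand: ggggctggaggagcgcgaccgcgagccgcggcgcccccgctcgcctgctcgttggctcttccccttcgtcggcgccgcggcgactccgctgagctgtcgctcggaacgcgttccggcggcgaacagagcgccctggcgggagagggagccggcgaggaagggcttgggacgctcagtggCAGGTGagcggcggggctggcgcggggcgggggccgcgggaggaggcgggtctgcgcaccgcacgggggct

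*Dab1*, other start, chr4:103619250-103619499, plus strand: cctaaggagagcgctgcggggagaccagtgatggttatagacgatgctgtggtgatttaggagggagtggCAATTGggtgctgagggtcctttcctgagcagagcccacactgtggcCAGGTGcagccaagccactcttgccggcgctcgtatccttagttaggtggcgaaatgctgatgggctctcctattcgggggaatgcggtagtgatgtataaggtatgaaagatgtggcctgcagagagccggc

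The *Reln* window was 80.0% G or C and held 37 CpG pairs, more than 97.8% of the 32851 RefSeq windows of the same length, whose median was 6. The CpG-rich *Dab1* window had 78.0% G or C and 40 CpG pairs, whereas the other *Dab1* window had 56.4% and 10. CpG pairs above the median of 6 were not particular to these genes. The richest window held 18 for *Vldlr*, *Lrp8* and *Crk*, 21 for *Fyn* and 23 for *Crkl*. Further windows held 5 for *Vldlr*, and 5 and 2 for *Lrp8*. CANNTG was found once in the *Reln* window, as CACGTG, and in 66.2% of all windows. CACGTG itself was found in 6.02% of all windows. These matches are letters in a window and were not tested as binding sites.

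*Reln* encodes the ligand and was higher at each later stage. Its log2 signal was 6.22 and 6.40 in the E10.5 arrays (replicates 1 and 2), 7.77 and 8.03 at E11.5, then 8.55 and 9.05 at E12.5. No array of a stage overlapped with an array of another stage, and within each stage the arrays lay close together. The stage means were 6.31 ± 0.13 (SD, n = 2), 7.90 ± 0.19 (SD, n = 2) and 8.80 ± 0.35 (SD, n = 2). From E10.5 to E12.5 its log2 difference was 2.49 (standard error 0.32), a 5.62-fold higher signal. The first day added 1.59 of this and the second day 0.90. Both replicate numbers gave a like size, 2.33 for replicate 1 and 2.65 for replicate 2, and leaving out E10.5 replicate 1 gave 2.40. Among the 7318 genes above the detection limit in at least 1 stage, *Reln* had the 8th largest difference over both days and the 7th largest over the first. On the E10.5 replicate 1 array its signal lay 0.32 below that array's detection limit, and on the E10.5 replicate 2 array 1.03 above it. The size of the difference therefore rests in part on an E10.5 level near background.

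*Dab1* encodes the adaptor without which the receptors do not pass the signal on, and its highest signals were those of the E12.5 arrays. Its log2 signal was 6.39 and 5.96 in the E10.5 arrays, 5.28 and 6.68 at E11.5, then 7.73 and 8.57 at E12.5. Both E12.5 arrays were above all others, while the E10.5 arrays lay between the 2 E11.5 arrays. The means were 6.18 ± 0.30 (SD, n = 2), 5.98 ± 0.99 (SD, n = 2) and 8.15 ± 0.60 (SD, n = 2). From E11.5 to E12.5 the log2 difference was 2.17 (standard error 0.53), the 2nd largest among the 7318 genes. It was 1.47 without the E11.5 replicate 1 array and 2.87 with E11.5 replicate 2 left out, so its size depends on which E11.5 array is used. Between E11.5 and E10.5 it was -0.20, from -1.11 for replicate 1 and 0.72 for replicate 2, and 0.02 with E10.5 replicate 1 left out, so its direction is not settled. Between E12.5 and E10.5 it was 1.97, or 3.93-fold, and 2.19 without the E10.5 replicate 1 array. *Dab1* was below the limit of the E10.5 replicate 1 and the E11.5 replicate 1 arrays, and above it on the other 4. A second cluster that also names *Dab1* alone had log2 signals of 4.88 and 4.63 for E10.5, 4.97 and 5.43 for E11.5, then 6.28 and 6.28 at E12.5. It lay above the limit on 2 of the 6 arrays. Its log2 differences were 0.45 in the first day and 1.08 in the second, and its stages did not overlap. Both clusters of *Dab1* were thus higher in the E12.5 arrays than in any earlier array, and the second lay below the limit on 3 of the 4 earlier arrays.

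**Figure D1:**
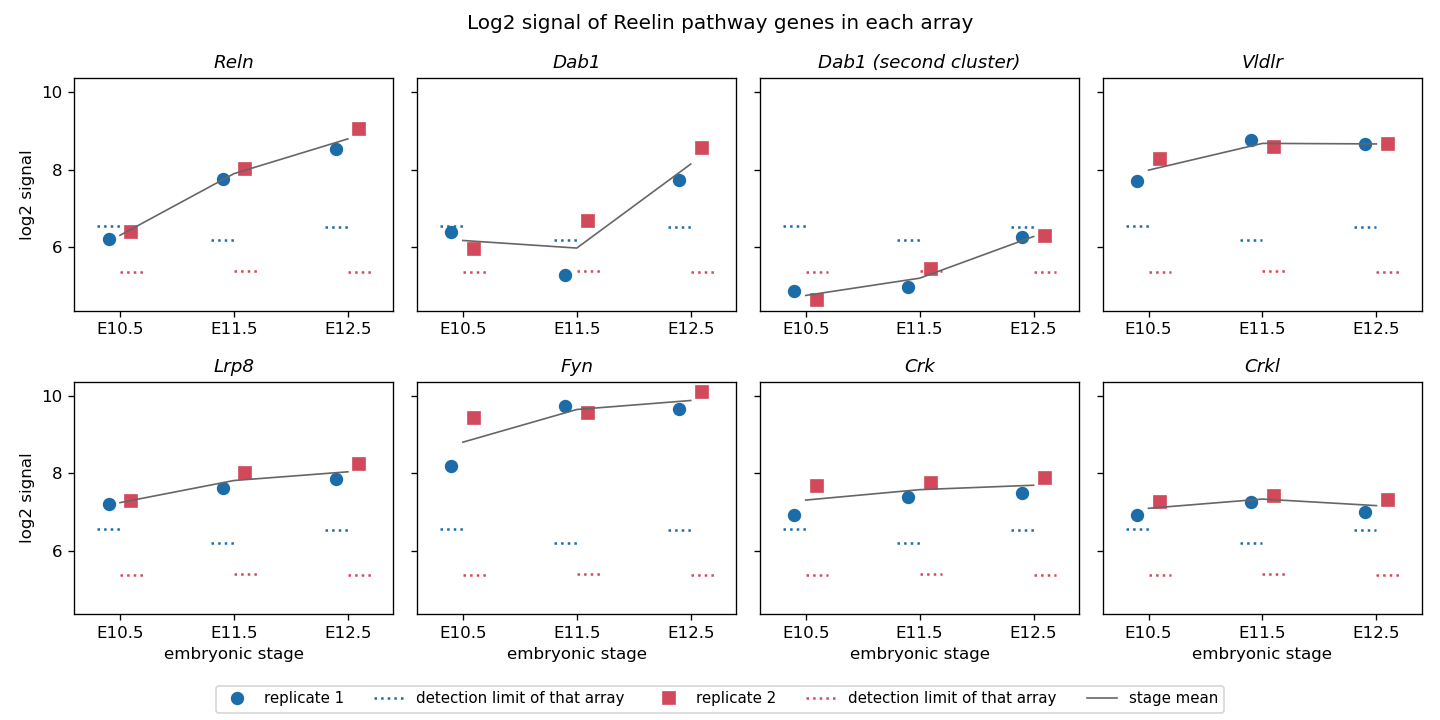
Log2 signal (y axis) of the 7 genes and of the second *Dab1* cluster at each embryonic stage (x axis), with circles for replicate 1, squares for replicate 2, a line through the stage means and dotted marks for the detection limit of each array. *Reln* separates all stages, from 6.22 to 9.05, *Dab1* is high at E12.5 only, and *Crkl* stays between 6.92 and 7.40.

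Of the receptors, *Vldlr* was higher at E11.5 and E12.5 than at E10.5. Its log2 signal was 7.71 and 8.27 for E10.5, 8.77 and 8.60 for E11.5, then 8.67 in both E12.5 arrays. The later stages overlapped with each other and not with E10.5. Its log2 difference was 0.69 over the first day (standard error 0.32) and -0.01 over the second. The E10.5 replicate 1 array carried much of the first difference, which was 0.41 without it, and that between E12.5 and E10.5 was 0.68 with and 0.40 without it. *Lrp8*, the other Reelin receptor, had log2 signals of 7.20 and 7.28 for E10.5, 7.61 and 8.01 for E11.5, then 7.84 and 8.23 at E12.5. Its E10.5 arrays were below all later ones, and E11.5 and E12.5 overlapped. From E10.5 to E12.5 the log2 difference was 0.80 (standard error 0.32), or 1.74-fold, from 0.64 for replicate 1 and 0.96 for replicate 2, and 0.76 without the E10.5 replicate 1 array. Unlike *Reln* and *Dab1*, both receptors were above the detection limit on all 6 arrays.

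*Fyn*, the Src family kinase that phosphorylates Dab1, was above the limit on every array too. Its log2 signal was 8.18 and 9.42 for E10.5, 9.73 and 9.56 for E11.5, then 9.66 and 10.09 at E12.5. Every later array was above both E10.5 arrays, but the E10.5 arrays differed from each other by more than E11.5 differed from E12.5. From E10.5 to E12.5 the log2 difference was 1.08 (standard error 0.45), from 1.48 for replicate 1 and 0.67 for replicate 2. It was 0.46 without the E10.5 replicate 1 array and 1.70 with E10.5 replicate 2 left out. The size for *Fyn* is thus set largely by which E10.5 array is used.

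*Crk* and *Crkl* encode paralogous SH2 and SH3 adaptors that bind phosphorylated Dab1, and their stage means lay within 0.38 of each other. *Crk* had log2 signals of 6.93 and 7.68 for E10.5, 7.39 and 7.76 for E11.5, then 7.50 and 7.88 at E12.5. The stages overlapped, with the replicate 2 array above the replicate 1 array in each. From E10.5 to E12.5 the log2 difference was 0.38 (standard error 0.37) and 0.0082 without the E10.5 replicate 1 array. *Crkl* had 6.92 and 7.26 for E10.5, 7.26 and 7.40 for E11.5, then 7.003 and 7.32 at E12.5. Its E12.5 arrays overlapped with those of E10.5, and the log2 difference was 0.07 (standard error 0.31), or -0.10 without the E10.5 replicate 1 array. Its E11.5 arrays lay above those of E10.5 by 0.24 on average, which is within the standard error of 0.31.

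**Figure D2:**
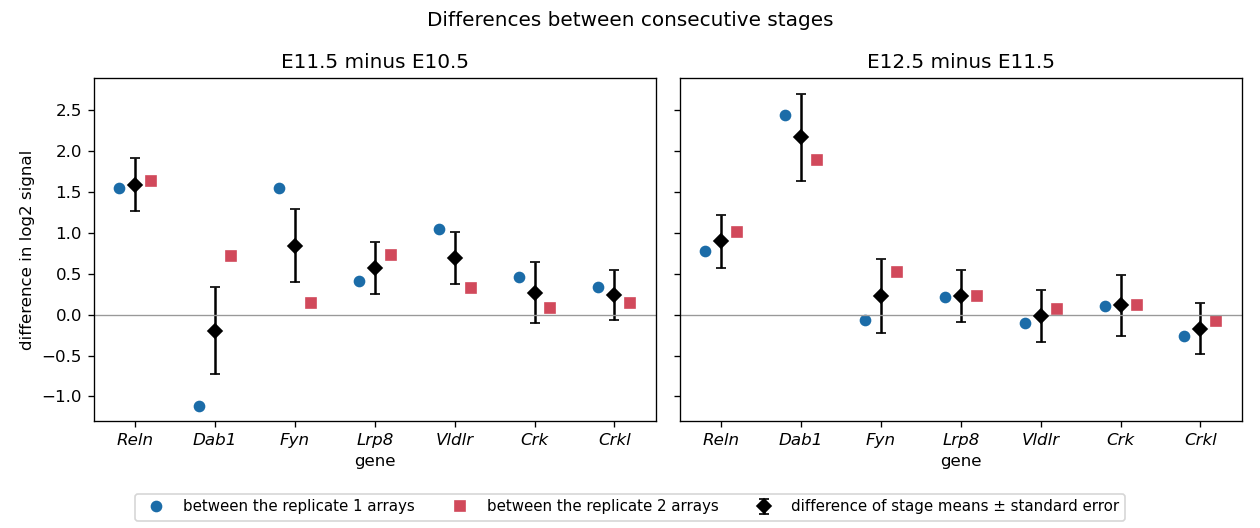
Difference in log2 signal (y axis) between consecutive stages for the 7 genes (x axis). Black diamonds are differences of stage means with their standard error, circles and squares the differences between arrays of replicate number 1 and 2. *Reln* stands at 1.59 in the first step, *Dab1* at 2.17 in the second, and the other 5 genes lie between -0.17 and 0.23 in the second.

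Set side by side, 5 of the 7 genes (*Reln*, *Dab1*, *Vldlr*, *Lrp8* and *Fyn*) had both E12.5 arrays above both E10.5 arrays, and 0 had both below. Of all named genes 10.2% lay above in this way and 11.8% below. Between E11.5 and E10.5 again 5 of 7 were higher (*Reln*, *Vldlr*, *Lrp8*, *Fyn* and *Crkl*) and 0 lower, against 8.84% and 7.2% of all named genes. *Crkl* entered this count narrowly, with its lower E11.5 array at 7.2609 and its higher E10.5 array at 7.2584. Between E12.5 and E11.5 the 2 genes *Reln* and *Dab1* were higher and 0 lower, against 8.51% and 11.9%. Among the clusters used, *Reln* alone had each stage above the one before without overlap, as did 2.06% of all named genes. The second *Dab1* cluster had this order too, though it was above the limit on only 2 of the 6 arrays. With E10.5 replicate 1 left out, the counts against E10.5 were again 5 and 5, but 37.4% and 40.3% of all named genes then lay above the single E10.5 array. The median log2 difference of the 7 genes between E12.5 and E10.5 was 0.80, and that of all named genes was -0.09. Since the genes were chosen with these values known, nothing is read from the counts. By the moderated test of limma over all clusters, with Benjamini-Hochberg adjustment, 0 of the 7 genes passed an adjusted p of 0.05 in any of the 3 comparisons, as did 0 of 23332 clusters (0%). The adjusted p of the 7 genes was 0.816 to 0.991 between E12.5 and E10.5 and 1 in the other 2 comparisons. At an unadjusted p under 0.05 the test gave 928, 465 and 212 of 23332 clusters for E12.5 against E10.5, E11.5 against E10.5 and E12.5 against E11.5. Each is a smaller share than the 0.05 that this threshold would pass on average with no true differences. A fit with the replicate number as a block, limited to clusters that name 1 gene, called 27 of 14996 clusters (0.18%) between E12.5 and E10.5, and *Reln* was among them with an adjusted p of 0.00657. That fit had been seen to give calls in earlier work on these data, so it is no independent support. Over all 23332 clusters the limma fit with the same block called 0, and *Reln* had an adjusted p of 0.313.

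The wider pathway was described from lists of 79 genes by role, of which 71 were measured. Leaving out the 7 genes above, 14 of 64 had both E12.5 arrays above both E10.5 arrays, 6 had both below and 44 overlapped, with a median log2 difference of 0.13. Of all named genes 10.2% lay above and 11.8% below in this way, with a median of -0.09. The list counts that follow stand beside the same shares. With E10.5 replicate 1 left out, 28 (43.8%) lay above and 20 (31.2%) below the single E10.5 array, and of all named genes 37.4% lay above and 26.5% below. Limma called 0 of them at an adjusted p under 0.05, so the values of these genes are differences that did not pass the test. In what follows, "higher" and "lower" mean only that both E12.5 arrays lay above or below both E10.5 arrays, and each log2 difference or list median from E10.5 to E12.5 is followed by its value with E10.5 replicate 1 left out.

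Of the ligands and the proteases that cut Reelin, 10 were measured, *Reln* included. Of these 2 were higher, 3 lower and 5 overlapped, with a median of -0.30 (0.04 without that array). *Thbs1*, which encodes the matrix protein thrombospondin-1, also a ligand of the Reelin receptors, had log2 signals of 6.66 and 7.14 for E10.5, 6.76 and 6.89 for E11.5, then 5.98 and 6.26 at E12.5. Its E12.5 arrays were below all others, with a log2 difference of -0.78 (-1.02 without that array). *Adamts5*, a protease of the family that cleaves Reelin, stood at -0.84 (-0.49). *Plat*, the tissue plasminogen activator, stood at 0.53 (0.32), with both later stages above E10.5 (5.67 and 6.09 for E10.5, 6.33 and 6.53 for E11.5, then 6.32 and 6.50 at E12.5). *Apoe*, *Clu* and *Selenop*, whose products bind the same receptors, overlapped between E10.5 and E12.5. The stage means of *Clu* and *Selenop* were below the limit of 5.84 at every stage, and that of *Apoe* was above it at E10.5 only (5.95).

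Among receptors and proteins that handle them, 13 were measured, 4 higher, 2 lower and 7 overlapping, with a median of 0.13 (0.23 without that array). *App*, the amyloid precursor that shares adaptors with these receptors, stood at 0.995 (0.52) and was higher. *Efnb2*, an ephrin that takes part in Reelin signaling, had 0.96 (0.11) and overlapped, and *Efnb1* had -0.07 (0.22) and overlapped too. *Mylip*, the ubiquitin ligase that sends Vldlr and Lrp8 to degradation, was lower at -0.40, but nearly all of this lay in 1 array (-0.06 without it). *Dab1* and the Src family kinases had 3 of 5 higher, 0 lower and a median of 0.19 (0.34). Of the kinases, *Src* at -0.07 (0.34) and *Yes1* at 0.01 (-0.18) overlapped between the stages. In the branch from Crk to Rap1 and cell adhesion 8 were measured, 0 higher and 1 lower, with a median of 0.08 (0.04). The lower gene was *Nectin3*, a cell adhesion molecule, at -0.44 (-0.65). *Nectin1* of the same family had -0.24 (0.07) and *Cdh2*, the N-cadherin through which Rap1 acts in migrating neurons, 0.38 (0.13), and both overlapped.

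Of the PI3 kinase, Akt and actin branch 14 were measured, 3 higher and 0 lower, with a median of 0.13 (0.18 without that array). The higher genes were the catalytic subunit *Pik3ca* at 1.05 (0.27), the regulatory subunit *Pik3r1* at 0.78 (0.37) and the cofilin kinase *Limk1* at 0.46 (0.57). *Pik3ca* had 1.66 for replicate 1 and 0.45 for replicate 2. *Cdc42*, a GTPase of the actin cytoskeleton, had -0.04 (-0.30) and *Mtor*, a kinase downstream of Akt, 0.10 (-0.01), and both overlapped. In the branch of Lis1, Cdk5 and microtubule proteins 5 of 12 were higher and 0 lower, with a median of 0.34 (0.18). They were *Pafah1b3* at 0.76 (0.60), a partner of Lis1, the microtubule proteins *Mapt* at 0.70 (0.99), *Dcx* at 0.64 (0.43) and *Map2* at 0.34 (0.38), and *Cdk5r1* at 0.34 (0.47), which activates Cdk5. *Pafah1b1*, which encodes Lis1 itself, had 0.15 (-0.09) and overlapped, as did *Nde1* at -0.23 (-0.60) and *Cdk5r2*, the other activator of Cdk5, at -0.14 (0.15). *Dcx* is also on the list of neuronal markers below.

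Of the genes for the turnover of Dab1 9 were measured, 2 higher, 0 lower and 7 overlapping, with a median of 0.24 (-0.12 without that array). *Cul5* at 0.24 (-0.12) and *Rnf7* at 0.06 (0.01), which form the ligase that degrades phosphorylated Dab1, overlapped. *Socs2*, a substrate receptor of ligases of this kind, had the second largest difference of the whole pathway at 2.42 (1.44). Its log2 signal was 5.38 and 7.33 for E10.5, 6.45 and 8.19 for E11.5, then 8.99 and 8.56 at E12.5. The E12.5 arrays were above all others, but the arrays of the earlier stages differed widely by replicate number, and the difference was 3.61 for replicate 1 and 1.23 for replicate 2. *Cbl*, another ubiquitin ligase, had 0.85 (-0.35) and overlapped, since its E10.5 arrays stood at 5.34 and 7.74. *Socs7*, which is known to act on Dab1 in migrating neurons, was higher by 0.16 (0.17), within its standard error of 0.28, and *Socs6* had 0.03 (-0.34) and overlapped.

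**Figure D3:**
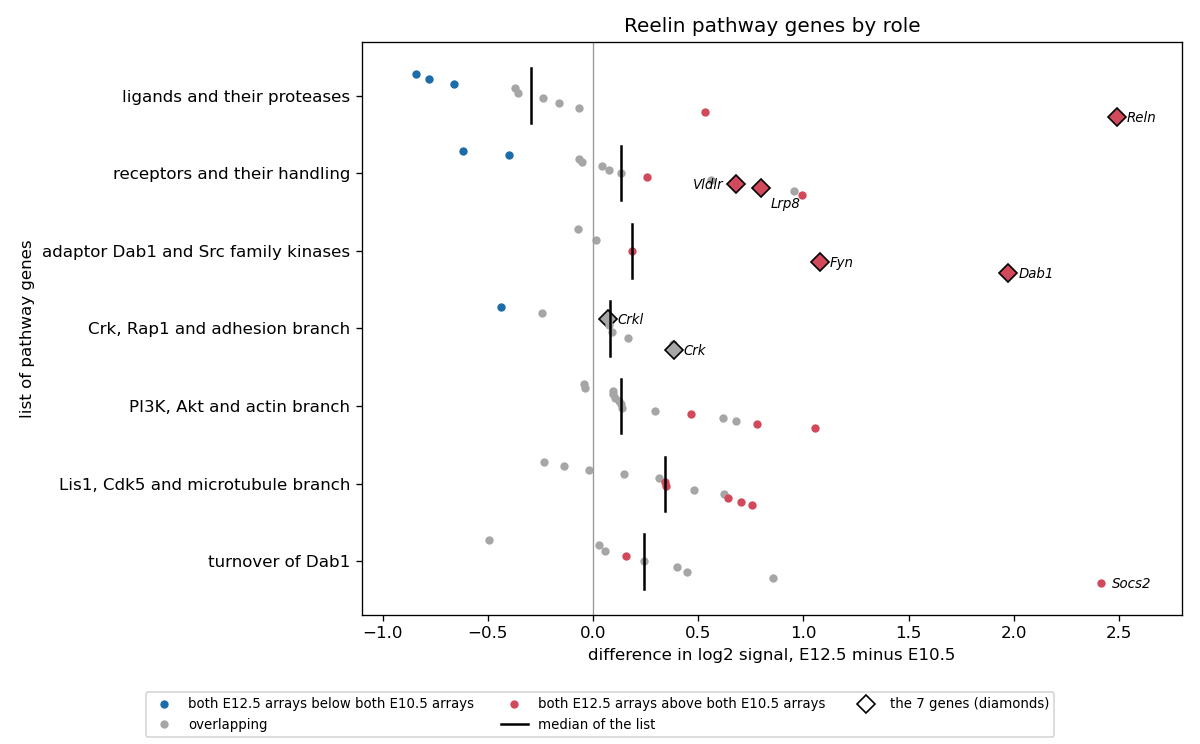
Difference in log2 signal between E12.5 and E10.5 (x axis) of 71 pathway genes, grouped by role (y axis), with diamonds for the 7 genes, colors for arrays of E12.5 above, below or overlapping with those of E10.5, and black bars for list medians. *Reln* (2.49), *Socs2* (2.42) and *Dab1* (1.97) lie apart from the other points, which end at 1.08 (*Fyn*).

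Genes whose signal followed that of *Reln* most closely over the 6 arrays were sought among 331 genes above the detection limit in at least 1 stage and with stage means at least 1 apart. They were *Sorbs2* (Pearson r 0.997), *Sgip1* (0.995), *Disp2* (0.991), *Robo2* (0.989), *Hecw1* (0.980) and *Trim32* (0.977). Of these, *Robo2*, a receptor for Slit guidance cues, had the size of change nearest to that of *Reln*, at 2.64 between E12.5 and E10.5. The genes nearest to *Dab1* were *AW551984* (0.971), *Kit* (0.954), *Grik2* (0.946), *Nfib* (0.944), *Cacna2d3* (0.936) and *Neurod6* (0.933). The means of *AW551984*, *Cacna2d3* and *Neurod6* were below the limit of 5.84 at E10.5 and E11.5. They entered the pool only through E12.5, where *Dab1* is high, so their r rests in part on background values. *Kit* encodes a receptor tyrosine kinase, *Grik2* a kainate receptor subunit, and *Nfib* and *Neurod6* transcription factors. These r are a description over 6 points, of which pairs share a stage and all share their processing.

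Markers of cell types were set beside these values in the same way, and limma called 0 of them too. Of all named genes 10.2% were higher and 11.8% lower. Pan-neuronal markers were higher for 5 of 7 genes and lower for 1 (*Nefm*), with a median log2 difference of 0.62 (0.43 without E10.5 replicate 1), and the medians of this list over the arrays were 9.67 and 9.71 at E10.5 and 9.80 and 10.16 at E12.5. Markers of dorsal inhibitory neurons were higher for 7 of 9 and lower for 0, with a median of 1.09 (1.34). Among them *Pax2*, a transcription factor of these neurons, had mean log2 signals of 6.68, 6.69 and 8.01 at the 3 stages. *Slc32a1* at 0.008 (0.44) and *Gbx1* at -0.08 (0.11) overlapped. *Lhx5*, counted as higher, had no stage mean above the limit of 5.84. Markers of dorsal excitatory neurons were higher for 2 of 8, *Slc17a6* at 1.36 (1.03) and *Ebf2* at 1.18 (1.05), and lower for 0. Their median was 0.01 (0.40). The mean over all arrays was above the limit for 3 of these 8 markers and for 7 of the 9 inhibitory ones. The 2 medians therefore do not compare like with like. Dividing cell markers were lower for 2 of 7 and higher for 0, with a median of -0.60 (-1.08), and progenitor markers were lower for 2 of 10 and higher for 1, with a median of -0.35 (-0.17).

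The labels call the cells commissural neurons. Of 14 dorsal interneuron factors 10 had a stage mean above the detection limit of 5.84. Over all 14, 3 were higher and 3 lower, with a median of -0.14 (0.32 without that array). These counts include *Lhx5* (higher) and *Ptf1a* (lower), which had no stage mean above the limit. *Lhx2* and *Lhx9* of dI1 neurons were above it at every stage, with mean log2 signals of 7.71, 7.88 and 7.11 for *Lhx2*. So were factors of other dorsal interneurons, among them *Isl1* (8.25, 8.91 and 8.65), *Pax2* and *Lhx1* (6.19, 6.21 and 7.02). Set against each array's own limit, however, *Lhx1* was below it on every replicate 1 array (6.13, 5.89 and 6.48). *Lbx1*, *Tlx3*, *Lhx5* and *Ptf1a* were below the limit of 5.84 at every stage. *Sox2* and *Mki67*, of progenitors and dividing cells, were above it, at 9.05 and 8.91 or more. Markers of neural crest and Schwann precursors were higher for 1 of 6 and lower for 3, with a median of -0.45 (-0.25), and those of dorsal root ganglion neurons higher for 1 of 6 and lower for 1, with a median of -0.12 (0.23). Of the markers of motor neurons and ventral interneurons 0 of 8 had a stage mean above the limit, and of endothelium 0 of 7. Of mesenchyme markers 3 of 8 did, and over all 8 genes 1 was higher and 2 lower. The higher gene, *Pdgfra*, and 1 of the lower, *Twist1*, were below the limit at every stage. *Postn*, a matrix protein gene, was lower and stood at -2.92 (-4.30), from 5.33 and 8.08 at E10.5 to 3.97 and 3.60 at E12.5. Of the markers of microglia and macrophages 2 of 7 did, with 0 higher and 2 lower. From E10.5 to E12.5 the stage means of *Cx3cr1* went from 7.12 to 6.12 and those of *Cd68* from 6.64 to 5.88. The *Cx3cr1* arrays stood at 8.06 and 6.19 for E10.5, then 6.18 and 6.07 at E12.5. Without E10.5 replicate 1 the log2 difference was -0.07 for *Cx3cr1* and -0.43 for *Cd68*. Nearly all of the *Cx3cr1* difference thus lay in that array. Of red blood cell markers 2 of 3 had a stage mean above the limit, with 1 higher and 0 lower. The part of these cells in the values of *Reln*, *Dab1* and the other genes was not tested.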

How the data were processed

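GFP+ cells of 3 stages were measured on 6 arrays. The values deposited by the authors are log2 signals of transcript clusters. The submitters' processing notes name oligo and mm9, and the oligo version and normalization method are not given in the sources used here. The values were used as deposited. Genes were named from the platform annotation, with symbols updated through RefSeq. Of 23332 clusters 14996 name 1 gene, 1019 several, and 7317 are not listed. Stages were compared with limma 3.58.1 in R 4.3.3, with a mean for each stage on all arrays. Variances were moderated (eBayes) and p-values adjusted by Benjamini-Hochberg over the 23332 clusters. The fit was also run on simulated data with known changes. There the arrays varied independently, whereas real arrays of the same replicate number deviated together, so that run gives no error rate for these data. With 2 arrays against 2, an exact permutation test cannot go below p = 0.333, so none was run; precision is limited by how few arrays there are. Named genes are the 7 members, the 2 highest and 2 lowest detected genes of each pathway list, the 6 most like *Reln* and *Dab1*, and markers, while *Apoe*, *Clu*, *Selenop*, *Limk1*, *Dcx*, *Map2*, *Cdk5r1*, *Pafah1b1*, *Cul5* and *Socs7* were named after their values were seen. Members and lists were chosen with earlier results of these data known. Figures used Python 3.11.15, matplotlib 3.10.9 and pandas 2.3.3. Alternatives covered scaling, filters, variance moderation, the replicate block and each array left out, and counts, pathway differences and list medians without the E10.5 replicate 1 array were added after seeing the data.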

Additional observations from a re-analysis of the deposited data

How the results depend on the processing

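No stage comparison gave calls in the fit as reported, and other filters, scalings and variance settings gave 0 as well, with these exceptions. For E12.5 against E10.5, 27 clusters were called with the replicate block and clusters naming 1 gene, and leaving out 1 array gave 0 to 325, the 325 without E10.5 replicate 2. For E11.5 against E10.5, leaving out 1 array gave 0 to 250, the 250 again without E10.5 replicate 2, and for E12.5 against E11.5 it gave 0. A test without variance moderation also called 0, with 973, 508 and 379 of 23332 clusters at an unadjusted p under 0.05. An arm left with 1 array is assumed to vary like the others. Arrays of the same replicate number deviated together (r 0.4552, 0.4685 and 0.4836 across clusters), but 2 numbers whose meaning the labels do not give do not establish pairs. The replicate block over all clusters called 0, with 2098, 1243 and 637 of 23332 clusters at an unadjusted p under 0.05. Between E12.5 and E10.5, leaving out 1 array gave 2.24 to 2.74 for *Reln*, 0.40 to 0.96 for *Vldlr* and 0.46 to 1.70 for *Fyn*. Between arrays of the same replicate number (the replicate block) *Vldlr* had 0.96 and 0.40. *Crkl* changed sign without E10.5 replicate 1 (-0.10) and without E12.5 replicate 2 (-0.09). Between E12.5 and E11.5, leaving out 1 array gave 1.47 to 2.87 for *Dab1*.

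List medians moved with the scaling. With quantile normalization they were 0.28 for receptors, 0.30 for Dab1 and Src kinases, 0.0040 for the Crk branch and 0.23 for the PI3 kinase branch, and with centred array medians 0.27, 0.32, 0.22 and 0.27, and 0.48 for the Lis1 branch. Leaving out 1 array gave 0.0764 to 0.27, 0.14 to 0.34, -0.0292 to 0.22 and 0.11 to 0.45 for the first 4, 0.18 to 0.49 for the Lis1 branch, -0.12 to 0.61 for turnover of Dab1 and -0.62 to 0.04 for ligands. The causes were not tested. Signals near the detection limit, as for *Reln* and *Dab1* at E10.5, bound their fold changes only loosely.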
